A study of Mus musculus with 37 samples.

Results

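The fibroblast growth factor (FGF) genes described here are 10 genes of the mouse tailbud, 5 that encode secreted FGF ligands (Fgf3, Fgf4, Fgf8, Fgf17 and Fgf18) and 5 that are transcribed in response to FGF signalling (Spry2, Spry4, Dusp6, Etv4 and Etv5). They were chosen by symbol as rows of the raw count table, and are 10 of the 35542 genes in it. RNA-seq was performed on the tailbud, the caudal end of the embryo with the presomitic mesoderm and the axial progenitors, of 37 C57BL/6/Cast F1 embryos at E8-8.5, with 1 library per embryo and between 6 and 11 somites. The control (wt) embryos were Smchd1 fl/+ and came from mothers with floxed Smchd1 and no Cre. The matdel embryos were Smchd1 del/+ and came from Smchd1 del/fl mothers, in which the MMTV-Cre transgene had deleted the floxed copy in the oocyte. Both the oocyte's SMCHD1 and the embryo's own maternal copy were thus missing, while the paternal copy was intact. The wt mothers were Smchd1 fl/fl, so the mothers of the groups also differed in a copy deleted before Cre acted. In order from 6 to 11 somites there were 4, 4, 3, 3, 4 and 3 wt embryos and 4, 3, 2, 2, 3 and 2 matdel embryos, and the question asked of the samples was whether loss of maternal SMCHD1 changes gene expression at matched somite numbers.

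FGF ligands bind receptor tyrosine kinases together with heparan sulphate and switch on the RAS-ERK kinase cascade. In the tailbud they form a gradient that is highest at the posterior end, keeps presomitic cells immature and helps to place each new somite boundary. The response genes report on that signal: Spry2 and Spry4 encode Sprouty inhibitors of the cascade, Dusp6 encodes a phosphatase that inactivates ERK, and Etv4 and Etv5 encode ETS transcription factors.

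In units of 1000000 counts, depth ranged from 3.06 to 80.6 per library in wt embryos and from 0.916 to 30.2 (median 14.2) in matdel embryos. A pair of libraries held fewer than 4 such units, wt replicate 2 at 7 somites and matdel replicate 3 at 6 somites. In matdel replicates 1 and 2 at 6 somites, ribosomal RNA loci took 2.77% and 1.82% of the counts, against 0.176% in the lowest library. The targeted gene Smchd1 ranged from 105 to 204 CPM (counts per 1000000, TMM normalised) in wt and from 64.0 to 112 CPM in matdel embryos, a log2 fold change of -0.74 ± 0.07 (SE; edgeR quasi-likelihood test, adjusted p = 1.5e-07). Of 8 tailbud and presomitic markers, 0 were at 0 counts in all embryos, and their summed level was 632 to 1580 CPM in wt and 926 to 1361 CPM in matdel embryos. The 7 segmented somite markers summed to at most 11.6 CPM in wt and 52.3 CPM in matdel embryos.

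All 10 genes were detected in all 37 libraries and passed the filter on low counts. Per kilobase of exon (RPKM), Dusp6 was highest with 54.1 ± 10.6 RPKM (SD, n = 37), followed by Etv4 with 39.4 ± 8.97 RPKM. Fgf17 (30.2 ± 7.09 RPKM), Etv5 (28.6 ± 3.36 RPKM) and Fgf8 (28.1 ± 7.36 RPKM) formed a middle group in which neighbours changed places between embryos. Fgf17 was above Etv5 in 21 of 37 embryos. Etv5 was above Fgf8 in 15 of 21 wt embryos but in 5 of 16 matdel embryos. Fgf3 (17.03 ± 3.16 RPKM) and Spry2 (16.3 ± 2.38 RPKM) were likewise not ordered beyond their spread, with Fgf3 the higher in 21 of 37 embryos. Spry4 followed at 12.7 ± 2.41 RPKM and was above Fgf4 in 37 of 37 embryos. The least abundant were Fgf4 (3.67 ± 1.21 RPKM) and Fgf18 (2.25 ± 0.997 RPKM), and Fgf18 rested on 4 to 263 counts per library. With the longest transcript as the length in place of all exons, Fgf8 (32.5 RPKM) moved above Fgf17 (30.2 RPKM) and Etv5 (29.5 RPKM).

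**Figure D1:**
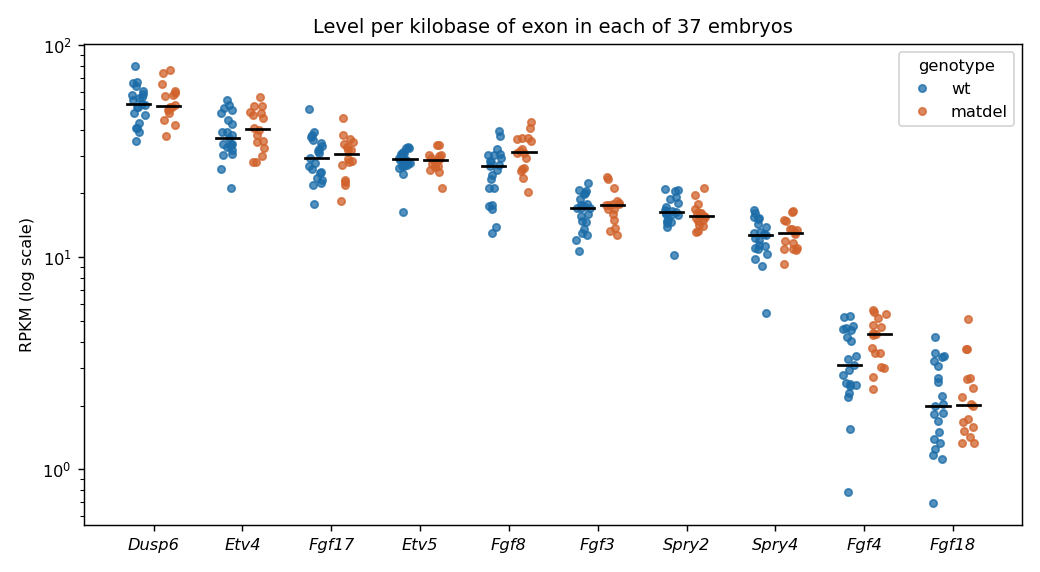
Level of each gene in RPKM on a log axis in the 21 wt (blue) and 16 matdel (orange) embryos, with 1 point per embryo and a black bar at the median of each genotype. Dusp6 is highest at a mean of 54.1 RPKM, Fgf17, Etv5 and Fgf8 overlap near 30 RPKM, and Fgf4 and Fgf18 lie lowest.

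The genes lie on 7 chromosomes (GRCm38). Fgf3 (chr7:144838083-144844436) and Fgf4 (chr7:144847367-144865243) are neighbours on the plus strand, Fgf17 (chr14:70636203-70642268) and Spry2 (chr14:105891947-105896819) share chromosome 14, and Fgf18 (chr11:33117430-33147400) and Etv4 (chr11:101769742-101785371) share chromosome 11. Fgf8 lies at chr19:45736798-45742915, Dusp6 at chr10:99263231-99267489 and Etv5 at chr16:22381309-22439719. No exon of the 10 genes shares bases with an exon of another annotated gene, so counting without regard to strand would not mix their reads with those of a neighbour.

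The levels changed with somite number in some members and not in others, and paralogues behaved differently. With all 37 embryos in one fit of somite number, genotype and sex, which was added after the slopes within each genotype had been seen, Etv4 and Fgf4 fell and Fgf17 and Dusp6 rose (4 of 10 members, 2 in each direction), while Fgf3, Fgf8, Fgf18, Spry2, Spry4 and Etv5 did not pass the threshold of 0.05 on the adjusted p. Over all genes the same fit called 18.6% of 15575 tested, 9.21% rising and 9.39% falling, so that a share of 4 in 10 stands beside a background of nearly 1 in 5.

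Etv4, an ETS activator, had the steepest slope of the falling members. At 6 somites it stood at 138, 149, 163 and 171 CPM in the wt and 117, 140, 151 and 160 CPM in the matdel embryos. At 8 somites it stood at 103, 106 and 120 CPM in wt and 126 and 145 CPM in matdel embryos, and at 11 somites at 81.3, 94.9 and 106 CPM in wt and 87.8 and 109 CPM in matdel embryos. The 5 embryos at 11 somites all lay below the lowest of the 8 embryos at 6 somites, in both genotypes together. The slope was -0.16 ± 0.02 log2 per somite (SE) in wt embryos (n = 21; edgeR, adjusted p = 0.00026) and -0.15 ± 0.03 in matdel embryos (n = 16; edgeR, adjusted p = 0.0055). In both genotypes together it was -0.15 ± 0.02 per somite (95% confidence interval -0.19 to -0.11; edgeR, adjusted p = 1.7e-07), which over 5 somites amounts to 0.595 of the starting level. Leaving out each embryo in turn gave -0.16 to -0.14 in that fit.

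Its paralogue Etv5, regulated by the same cascade, held its level. Etv5 was 108 to 136 CPM in wt and 87.0 to 139 CPM in matdel embryos at 6 somites, and 118 to 126 CPM and 103 to 112 CPM at 11 somites. The slope in both genotypes was -0.02 ± 0.02 log2 per somite, with an interval of -0.05 to 0.02 that does not reach the slope of Etv4 (edgeR, adjusted p = 0.54). The ratio of Etv4 to Etv5 within an embryo measures the divergence without the normalisation between libraries. Its log2 fell by 0.14 ± 0.02 per somite in wt embryos (permutation test, adjusted p = 0.0004 over 8 ratio tests) and by 0.12 ± 0.03 in matdel embryos (permutation test, adjusted p = 0.0059). In wt embryos the log2 ratio of CPM lay between 0.15 and 0.50 at 6 somites and between -0.56 and -0.25 at 11 somites, so the embryos of these stages did not overlap.

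Dusp6, the ERK phosphatase, moved the other way. The 6-somite embryos held 122, 147, 164 and 172 CPM in wt and 117, 132, 155 and 163 CPM in matdel, and the 11-somite embryos held 150, 179 and 250 CPM in wt and 191 and 207 CPM in matdel. Of the 5 embryos at 11 somites, 4 were above the highest embryo at 6 somites. The slope in both genotypes was 0.09 ± 0.02 log2 per somite (edgeR, adjusted p = 0.0032), or 1.34-fold over 5 somites. Within matdel embryos it was 0.11 ± 0.03 (edgeR, adjusted p = 0.037) and within wt embryos 0.07 ± 0.03, which missed the threshold (edgeR, adjusted p = 0.18).

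Fgf17, a ligand of the Fgf8 subfamily, also rose. It stood at 39.2, 39.8, 45.7 and 52.6 CPM in wt and 30.9, 37.1, 38.3 and 49.3 CPM in matdel embryos at 6 somites, and at 47.2, 60.4 and 84.2 CPM in wt and 63.5 and 77.0 CPM in matdel embryos at 11 somites. Of the 5 latest embryos, 4 were above the highest of the 8 earliest. The slope was 0.12 ± 0.02 log2 per somite in both genotypes (edgeR, adjusted p = 0.00078), a 1.501-fold rise over 5 somites, 0.13 ± 0.03 in matdel embryos (edgeR, adjusted p = 0.022) and 0.09 ± 0.03 in wt embryos (edgeR, adjusted p = 0.10).

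Fgf8, the main ligand of the presomitic gradient, gave no trend past the threshold, with 0.03 ± 0.03 log2 per somite (interval -0.04 to 0.10; edgeR, adjusted p = 0.60). The ratio of Fgf17 to Fgf8 rose by 0.09 ± 0.04 log2 per somite in matdel embryos (permutation test, adjusted p = 0.041) and by 0.08 ± 0.04, short of the threshold, in wt embryos (permutation test, adjusted p = 0.081). In matdel embryos the unadjusted p rose above 0.05 when any one of 7 of the 16 embryos was left out, with a lowest slope of 0.07, and when both matdel libraries with the highest ribosomal RNA share were left out (slope 0.08).

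Fgf4 fell. Its 8 embryos at 6 somites held 11.3 to 16.7 CPM (median 14.8) and its 5 embryos at 11 somites 6.99, 9.65, 10.9, 11.3 and 14.4 CPM, with 3 of the later embryos below every earlier one. The slope was -0.12 ± 0.04 log2 per somite in both genotypes (edgeR, adjusted p = 0.032), -0.14 ± 0.06 in wt (edgeR, adjusted p = 0.16) and -0.11 ± 0.05 in matdel embryos (edgeR, adjusted p = 0.29). The pooled call was lost without wt replicate 4 at 6 somites, wt replicate 3 at 7 somites or matdel replicate 2 at 11 somites, with adjusted p from 0.052 to 0.057 (edgeR), and in female embryos alone the slope was -0.07 (edgeR, adjusted p = 0.21). Fgf3, its neighbour on chromosome 7, stood at 29.6 to 49.3 CPM at 6 somites and 31.6 to 54.2 CPM at 11 somites, with a pooled slope of -0.0022 ± 0.02. The ratio of Fgf3 to Fgf4 rose by 0.13 ± 0.05 log2 per somite in wt and 0.13 ± 0.05 in matdel embryos (permutation test, adjusted p = 0.033 and 0.040). With single embryos left out the matdel value was 0.10 to 0.15. Over all the matdel ratio slopes, 19 of 80 alternative fits were weaker than the main fit.

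Fgf18 stood at 1.33 to 6.06 CPM at 6 somites and 2.37 to 4.37 CPM at 11 somites, with a pooled slope of 0.12 ± 0.05 (edgeR, adjusted p = 0.13). Without matdel replicate 2 at 6 somites, the embryo at 6.06 CPM, the slope was 0.17 and passed the threshold (edgeR, adjusted p = 0.012). The same library had the highest sum of segmented somite markers, 52.3 CPM, and a ribosomal RNA share of 1.82%. Their part in its Fgf18 level was not tested. The Sprouty genes were nearly flat, at 0.03 ± 0.02 log2 per somite for Spry2 (edgeR, adjusted p = 0.36) and -0.04 ± 0.02 for Spry4 (edgeR, adjusted p = 0.22). The ratio of Spry4 to Spry2 fell by 0.07 ± 0.03 per somite in wt and by 0.08 ± 0.03 in matdel embryos (permutation test, adjusted p = 0.026 and 0.040). With single embryos left out the matdel slope of this ratio was -0.11 to -0.063. The mean log2 ratio was 0.87 at 6 and 0.56 at 11 somites in wt but 1.07 and 1.03 in matdel embryos, so the matdel slope does not show between the end stages.

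Within the wt embryos alone, 1 of 10 members passed the threshold (Etv4, falling), where the fit called 6.64% of 15148 genes, 3.13% rising and 3.51% falling. Without wt replicate 1 at 10 somites, 3 members passed there (Etv4, Fgf17 with adjusted p = 0.012 and Dusp6 with adjusted p = 0.039, edgeR). Within the matdel embryos 3 of 10 passed (Fgf17 and Dusp6 rising, Etv4 falling), where 3.07% of 15477 genes were called, 1.93% rising and 1.14% falling. The calls of Fgf17 and Dusp6 there rested on few embryos: leaving out each in turn kept Fgf17 in 11 and Dusp6 in 8 of 16 cases, and Etv4 in 16 of 16. The difference in slope between the genotypes was called by edgeR for 0 of 10 members, 0 of which had an unadjusted p under 0.05, and DESeq2 also called 0. Over all 15978 genes 0% were called. The largest member difference was that of Fgf18, -0.16 ± 0.11 log2 per somite, matdel minus wt.

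**Figure D2:**
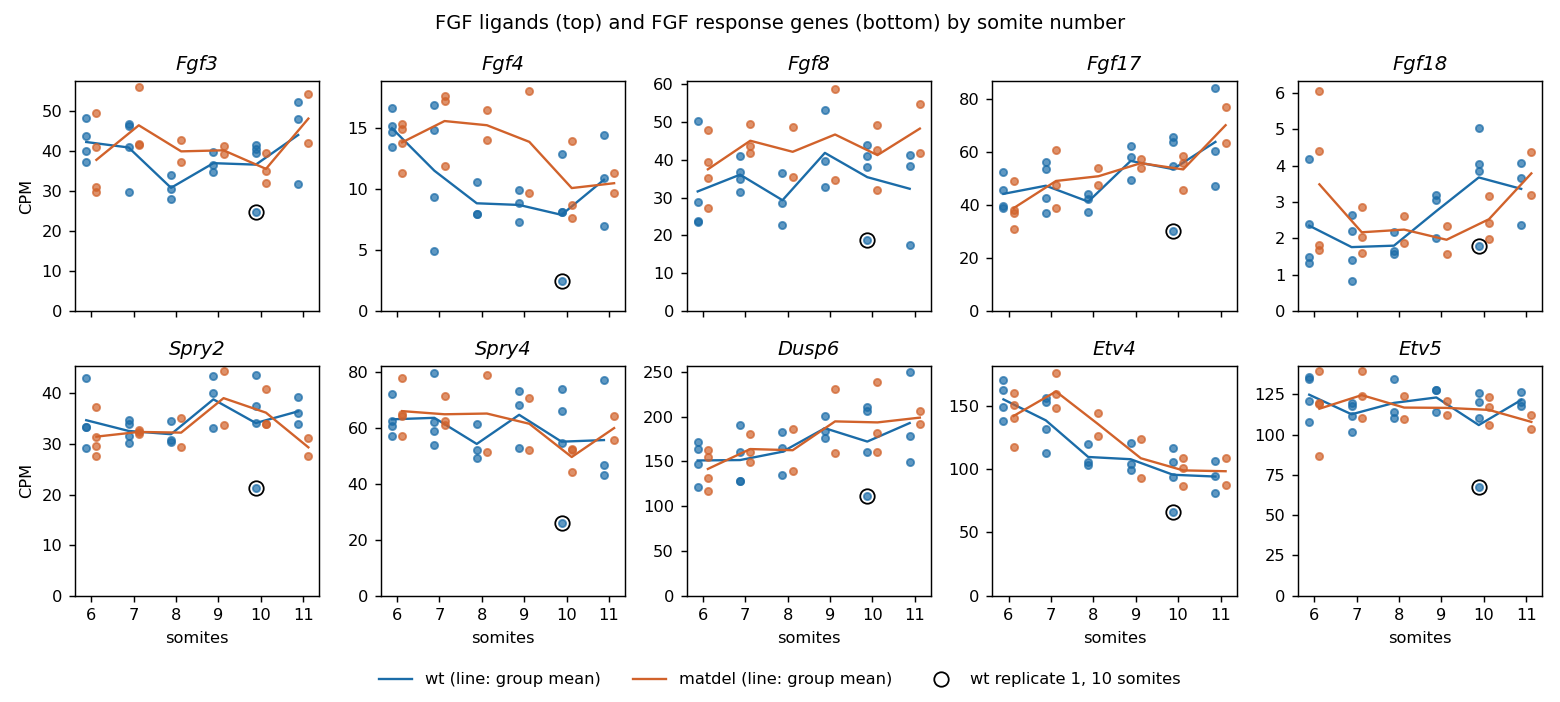
CPM of each gene against somite number in wt (blue) and matdel (orange) embryos, with 1 point per embryo, lines through the group means and a ring around wt replicate 1 at 10 somites. Etv4 falls from 117 to 171 CPM at 6 somites to 81.3 to 109 CPM at 11 somites, Dusp6 and Fgf17 rise, and the ringed embryo is the lowest of its group in all 10 panels.

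**Figure D3:**
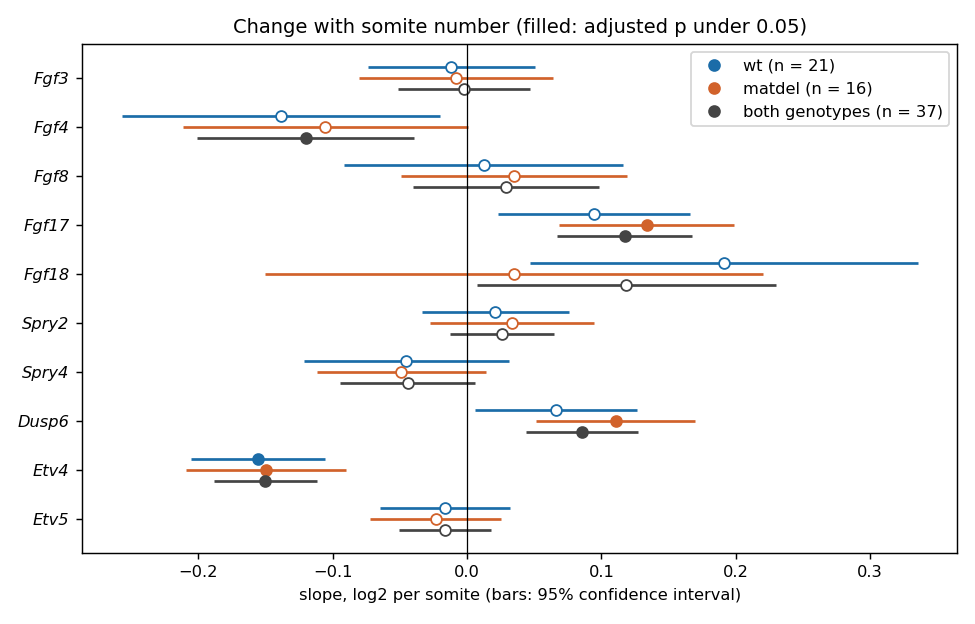
Slope on somite number in log2 per somite (points) with 95% confidence intervals (bars) in wt embryos, matdel embryos and both together, filled where the edgeR adjusted p was under 0.05. Etv4 lies near -0.15 in all 3 fits, Fgf17 and Dusp6 lie to the right of 0, and the intervals of the 2 genotypes overlap for each gene.

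Between the genotypes no member passed the threshold. Over all stages, in a fit with a term for each somite stage and one for sex, edgeR called 0 of 10 members, where 0.0125% of 15978 genes were called, and DESeq2 called 0 as well. At an unadjusted p under 0.05 the fit held 2 members, Fgf8 and Fgf4, both higher in matdel embryos, beside 5.67% of all genes.

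Fgf8 was the larger of these differences. At 6 somites it stood at 23.6, 23.9, 28.7 and 50.1 CPM in wt and 27.3, 35.1, 39.5 and 48.0 CPM in matdel embryos. At 7 somites it stood at 31.5, 35.0, 36.8 and 40.8 CPM in wt and 41.9, 43.7 and 49.4 CPM in matdel embryos, and at 8 somites at 22.9, 28.6 and 36.4 CPM against 35.5 and 48.7 CPM. At 9 somites the values were 32.8, 39.5 and 53.0 CPM against 34.6 and 58.7 CPM, at 10 somites 18.7, 38.0, 40.9 and 43.9 CPM against 31.9, 42.6 and 49.1 CPM, and at 11 somites 17.5, 38.2 and 41.2 CPM against 41.7 and 54.7 CPM. The matdel mean was the higher at 6 of 6 stages and 13 of 16 matdel embryos were above the wt mean of their stage. The groups overlapped at 4 stages and were apart at 7 and 11 somites, where 3.33% and 12.9% of genes had all matdel embryos above all wt embryos. The log2 fold change was 0.32 ± 0.12 (1.25-fold, interval 0.09 to 0.56; unadjusted p = 0.0085 and adjusted p = 0.87 by edgeR). It was 0.33 ± 0.14 at 6 to 8 and 0.34 ± 0.19 at 9 to 11 somites, and 0.22 ± 0.12 in female embryos alone. The value at 9 to 11 somites was 0.21 without wt replicate 1 at 11 somites and 0.55 without wt replicate 1 at 9 somites.

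Fgf4 was higher in matdel embryos by 0.30 ± 0.14 log2 (1.23-fold, interval 0.01 to 0.58; unadjusted p = 0.042 and adjusted p = 0.87 by edgeR). Without wt replicate 1 at 10 somites, at 2.49 CPM, its difference at 9 to 11 somites was 0.33 in place of 0.45. The members at an unadjusted p under 0.05 by edgeR then numbered 1 over all stages and 0 at 9 to 11 somites. The same counts were reached without some other single embryos, and the 0 also with no sex term. At 8 somites Fgf4 stood at 7.93, 7.98 and 10.6 CPM in wt and at 14.02 and 16.5 CPM in matdel embryos, a log2 fold change of 0.79 ± 0.23 (unadjusted p = 0.0073 and adjusted p = 0.999 by edgeR). At that stage 4 of 10 members had both matdel embryos above all 3 wt embryos (Fgf3, Fgf4, Fgf17 and Etv4), as did 8.56% of all genes. Both matdel embryos at 8 somites were female and 2 of the 3 wt embryos male, and the single-stage fits had no sex term, so genotype and sex cannot be told apart in the 8-somite values. At 6 somites, where all embryos were female, the order of the means was opposite, with 15.0 ± 1.34 CPM in wt and 13.8 ± 1.83 CPM in matdel embryos (SD, n = 4 each).

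The other 8 members differed by -0.07 to 0.08 log2 over all stages. The intervals limited the genotype difference to between -0.14 and 0.11 for Etv5, -0.20 and 0.07 for Spry2, -0.06 and 0.20 for Etv4, -0.11 and 0.19 for Dusp6, and -0.16 and 0.19 for Spry4. Fgf18 was bounded only between -0.34 and 0.45.

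In the separate windows of 6 to 8 and 9 to 11 somites edgeR also called 0 of 10 members, where 0.00639% and 0.00635% of genes were called. At an unadjusted p under 0.05 the windows held 1 member each, Fgf8 in the earlier and Fgf4 in the later. Over all genes that level was reached by 1216 of 15652 in the earlier and 296 of 15757 in the later window. DESeq2 called 0 members in both. The difference between windows was called for 0 members and 0% of all genes by edgeR, and for 0 members by DESeq2. Its 1 member with an unadjusted p under 0.05 was Fgf18, beside 577 of 16265 genes. Fgf18 was higher in matdel embryos by 0.49 ± 0.32 log2 in the early window and lower by -0.32 ± 0.22 in the late one (difference -0.77 ± 0.38; unadjusted p = 0.049 and adjusted p = 0.9999 by edgeR). Without matdel replicate 2 at 6 somites the early value was 0.22 and the difference -0.51. At the 6 single stages edgeR and DESeq2 each called 0 of 10 members, and edgeR 0% of all genes. With no filter on low counts, Fgf8 passed at 11 somites (0.58 ± 0.15; edgeR, adjusted p = 0.024). The main fit at that stage gave 0.58 ± 0.30 for Fgf8 (edgeR, adjusted p = 0.58). With single embryos left out the value was 0.27 to 0.82. The members with an unadjusted p under 0.05 by edgeR were Fgf8 at 7 somites, Fgf3, Fgf4 and Fgf8 at 8 somites and Spry2 at 11 somites. Over all genes 705 of 14611 reached that level at 7 somites, and the share at 8 and 11 somites is not given here. For Spry2 at 11 somites the 2 matdel embryos, at 27.6 and 31.1 CPM, lay below the wt embryos at 34.0, 36.1 and 39.3 CPM. Etv5 was the other member with both matdel embryos below all wt embryos at 11 somites, as were 13.5% of genes.

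**Figure D4:**
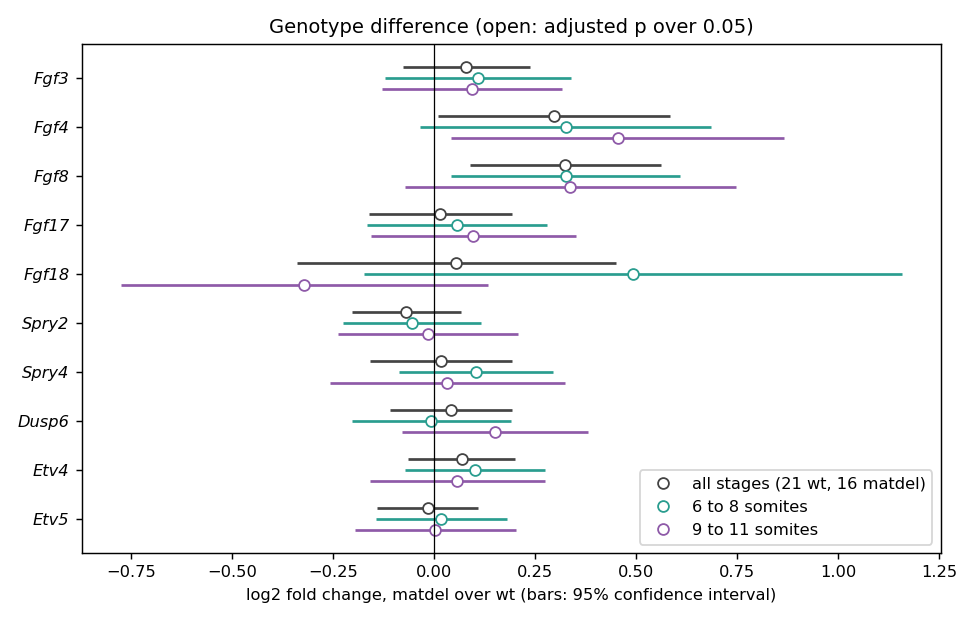
Log2 fold change of matdel over wt embryos (points) with 95% confidence intervals (bars) over all stages and in the 2 windows of somite number. Fgf8 and Fgf4 lie to the right, at 0.32 and 0.30 over all stages, Fgf18 has opposite signs in the windows, and no point passed an adjusted p of 0.05.

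The spread between embryos of one genotype and stage differed among the members. The SD of log2 CPM around the group mean (25 degrees of freedom) was 0.52 for Fgf4 and 0.41 for Fgf8, above 96.8% and 93.8% of the 9762 genes with a mean of at least 10 CPM, whose median SD was 0.21. Etv5 (0.20), Etv4 (0.21) and Spry2 (0.22) lay near that median, and Fgf3 (0.26), Dusp6 (0.28), Fgf17 (0.30) and Spry4 (0.33) lay between. Counting error was small beside these values, at 0.04 to 0.15 log2 for the 9 genes other than Fgf18, whose SD of 0.56 included a counting error of 0.31.

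A single embryo, wt replicate 1 at 10 somites, was the lowest of its group in all 10 members and the farthest from its group mean of all 37 embryos in 9 of them. Its levels were 2.49 CPM for Fgf4 (8.09 to 12.8 CPM in the other 3 embryos), 18.7 CPM for Fgf8 (38.0 to 43.9 CPM), 26.0 CPM for Spry4 (54.6 to 73.9 CPM) and 67.3 CPM for Etv5 (111 to 126 CPM). It was also the 1 male of its group. The same library had the lowest summed level of the 8 tailbud and presomitic markers, 632 CPM against 1110 to 1150 CPM in the rest of its group, and of the 5 node and notochord markers, 14.9 CPM against 36.5 to 43.9 CPM. For the 6 neural tube markers it ranked in place 35 from the top, with 48.2 CPM against 65.1 to 79.3 CPM. It ranked in place 3 from the top of 37 in 8 markers of visceral and gut endoderm (2590 CPM against 196 to 574 CPM), in 7 of primitive erythroid cells (3835 CPM against 113 to 1653 CPM) and in 6 of surface ectoderm and allantois (661 CPM against 321 to 392 CPM). In bulk tissue, fewer cells of a type and less RNA per cell cannot be told apart, and the part of these markers in the low levels was not tested. Without this embryo the SD fell to 0.42 for Fgf4, 0.24 for Spry4 and 0.15 for Etv5.

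Embryo by embryo, the members tended to deviate from their group means together. Of 75 pairs tested (45 pairs of members, and 30 of a member with the segmentation clock genes Hes7 and Lfng or the Wnt target Axin2), 30 were correlated at an adjusted p under 0.05 (100000 permutations of embryos within groups, two-sided, n = 37), 19 of them pairs of members. The residual correlation was positive in 44 of 45 member pairs (median r = 0.51), and 51.1% of them reached r = 0.5, against 8.26% of the 62815236 pairs of genes with a mean of at least 5 CPM. The points share their library, its depth and its size factor. Most of this rested on wt replicate 1 at 10 somites: without it 5 of 75 pairs passed, and the median over member pairs was r = 0.24. Leaving out any other single embryo left 22 to 32 pairs.

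Among the response genes 3 pairs passed with and without that embryo. Spry2 and Spry4 were the closest, with r = 0.85 and rho = 0.82 (permutation test, adjusted p = 0.0015 and 0.00075), r = 0.72 without the embryo, 0.74 without the 2 embryos farthest in Spry2, and r = 0.85 and 0.83 within wt and matdel embryos. Spry4 with Dusp6 had r = 0.76 and rho = 0.69 (permutation test, adjusted p = 0.0048 and 0.0060), r = 0.68 without the embryo and 0.67 without the 2 farthest in Spry4, and r = 0.88 and 0.42 within wt and matdel embryos. Spry4 with Etv5 had r = 0.73 and rho = 0.69 (permutation test, adjusted p = 0.0039 and 0.0024), r = 0.49 without the embryo and 0.48 without the 2 farthest, and r = 0.86 and 0.41 within wt and matdel embryos. Etv4 had r = 0.62 with Spry4 in all embryos (rho = 0.45, permutation test, adjusted p = 0.030 and 0.069). Without the embryo its r was 0.38 with Spry4, 0.11 with Spry2, 0.18 with Dusp6 and 0.24 with Etv5, and 0 of these 4 pairs passed.

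The ligands split. Fgf3 and Fgf8, on different chromosomes, had r = 0.71 and rho = 0.68 (permutation test, adjusted p = 0.0035 and 0.0024), r = 0.63 without the embryo, 0.72 without the 2 farthest, and r = 0.74 and 0.68 within wt and matdel embryos. The neighbours Fgf3 and Fgf4 had r = 0.64 and rho = 0.50 (permutation test, adjusted p = 0.017 and 0.034), which no longer passed without the embryo (r = 0.51; permutation test, adjusted p = 0.10). Fgf8 with Fgf17 had r = 0.58 and rho = 0.44 (permutation test, adjusted p = 0.024 and 0.056), and r = 0.42 without the embryo (permutation test, adjusted p = 0.18). Without the shallow libraries 5 of 10 ligand pairs passed, among them Fgf3 with Fgf17 (r = 0.81; permutation test, adjusted p = 0.0015). None of the 25 pairs of a ligand with a response gene passed without wt replicate 1 at 10 somites. Fgf8, the gradient ligand, then had r = -0.31 with Spry2, -0.03 with Spry4, 0.00086 with Dusp6, -0.21 with Etv5 and 0.40 with Etv4. With that embryo kept, Fgf8 had r = 0.25 with Spry2, 0.45 with Spry4, 0.56 with Dusp6 and 0.44 with Etv5 within wt embryos. Within matdel embryos these values were -0.32, -0.25, -0.62 and -0.40. Fgf8 with Etv4 had passed with all embryos (r = 0.56 and rho = 0.51, permutation test, adjusted p = 0.029 and 0.037), with r = 0.52 and 0.64 within wt and matdel embryos and 0.30 without the 2 farthest in Fgf8. With all embryos, 9 of those 25 pairs had passed, among them Fgf17 with Spry4 (r = 0.72 and rho = 0.62; permutation test, adjusted p = 0.012 and 0.0079), which had r = 0.53 without the embryo (permutation test, adjusted p = 0.075).

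Of the 30 pairs with Hes7, Lfng or Axin2, 11 passed with all embryos, 5 of them with Hes7, 3 with Lfng and 3 with Axin2, and 1 of the 30 passed without wt replicate 1 at 10 somites. Lfng, a Notch-modifying enzyme with cyclic expression in the presomitic mesoderm, deviated together with Dusp6 (r = 0.74 and rho = 0.76; permutation test, adjusted p = 0.0015 and 0.0022). The pair had r = 0.73 without wt replicate 1 at 10 somites, 0.66 without the 2 farthest, and r = 0.70 and 0.86 within wt and matdel embryos. Spry4 with Lfng (r = 0.58 and rho = 0.50, permutation test, adjusted p = 0.020 and 0.045), Spry4 with Hes7 (r = 0.58 and rho = 0.56, permutation test, adjusted p = 0.017 and 0.024) and Dusp6 with Hes7 (r = 0.60 and rho = 0.59, permutation test, adjusted p = 0.017 and 0.017) kept r = 0.58, 0.62 and 0.58 without that embryo, where they missed the threshold (permutation test, adjusted p = 0.10, 0.075 and 0.067). Their r without the 2 farthest embryos was 0.56, 0.61 and 0.46. Within wt embryos their r was 0.68, 0.62 and 0.57, and within matdel embryos 0.17, 0.49 and 0.67. Fgf8 and Fgf3 had r = 0.10 each with Lfng.

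**Figure D5:**
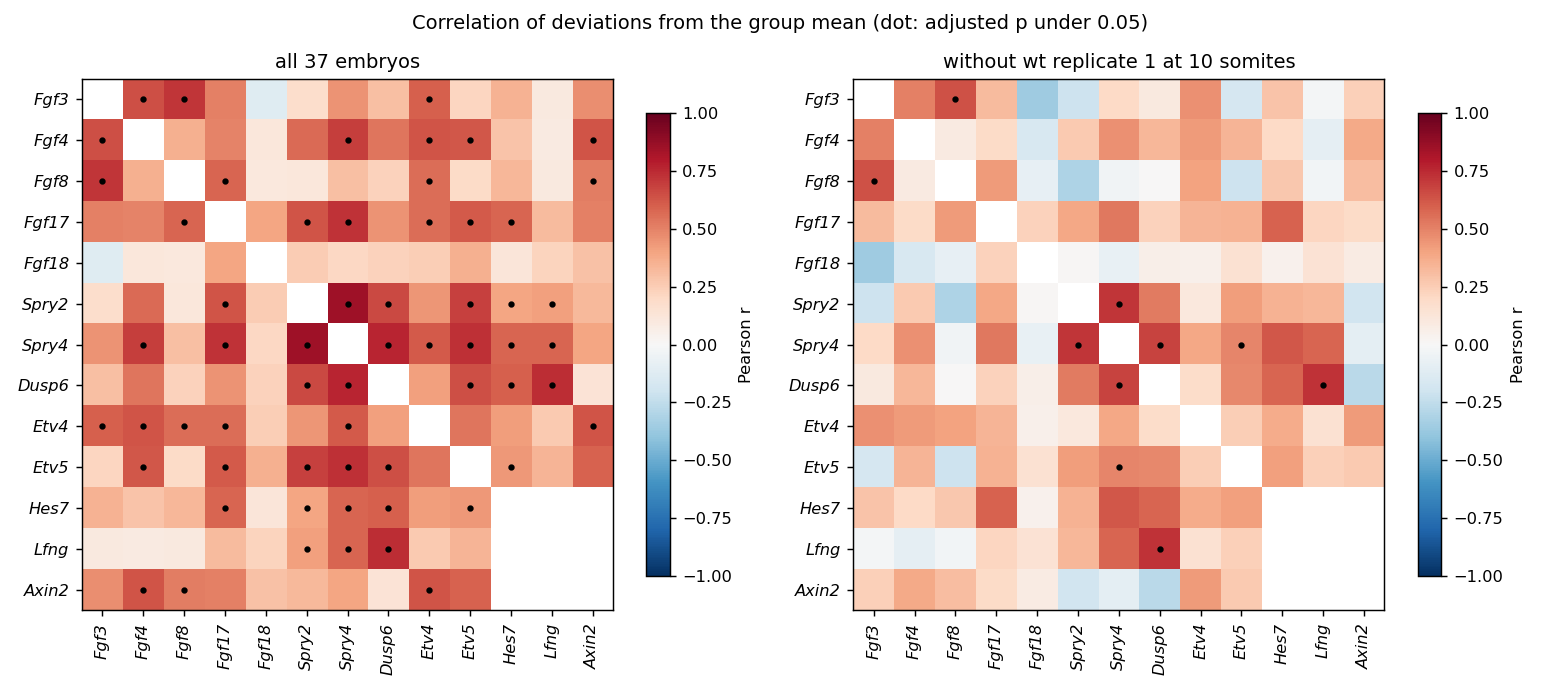
Pearson r between deviations of log2 CPM from the genotype and somite group mean, for the 10 members and Hes7, Lfng and Axin2, in all 37 embryos (left) and without wt replicate 1 at 10 somites (right), with dots where the permutation adjusted p was under 0.05. The 30 dotted pairs on the left shrink to 5 on the right: Spry2 with Spry4, Spry4 with Dusp6, Spry4 with Etv5, Fgf3 with Fgf8 and Dusp6 with Lfng.

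The genes whose deviations were most like those of each member among the 11209 genes with a mean of at least 5 CPM are given as a description over the 37 embryos. For Fgf8 they were Marcksl1 (r = 0.90), Cdx2 (0.89) and Zfp768 (0.84), and for Fgf3 they were Evx1 (0.85), Cdx2 (0.80) and Ptk7 (0.79). For Fgf4 they were Mixl1 (0.85), Hk2 (0.79) and Exoc6b (0.79), and for Fgf17 they were T (0.87), Hoxa7 (0.84) and Hoxaas3 (0.84). Cdx2, Evx1, Mixl1 and T encode transcription factors of the primitive streak and tailbud.

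The response genes had other neighbours. Those of Spry4 were Irs1 (r = 0.90), Fam49a (0.89) and Dusp4 (0.87), and those of Dusp6 were Dusp4 (0.80), Cdyl (0.80) and Herc4 (0.80), where Dusp4 encodes a nuclear ERK phosphatase. Those of Spry2 were Spry4 (0.85), Tbpl1 (0.84) and Trim24 (0.84). For Etv4 they were Arid3b (0.86), B3gnt7 (0.84) and Epha1 (0.84), and for Etv5 they were E330009J07Rik (0.89), Peli2 (0.88) and Robo1 (0.88). Fgf18 had weaker neighbours, Ufd1 (0.72), Fads1 (0.67) and Tdg (0.66). Without wt replicate 1 at 10 somites these 30 values of r were 0.60 to 0.86.

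ERK signalling acts on FGF response genes in part by relieving the repressor Capicua (CIC). Windows are printed for Dusp6, Spry2 and Etv5, the 3 members in which the core of the CIC site was found. Each pair of these genes was correlated over all embryos, but not without wt replicate 1 at 10 somites. There the permutation test gave adjusted p = 0.071 for Spry2 with Dusp6, 0.061 for Dusp6 with Etv5 and 0.16 for Spry2 with Etv5. RefSeq (GRCm38.p6) windows were at hand for 6 of the 10 members: Fgf3, Fgf4, Fgf18, Spry2, Dusp6 and Etv5, the last with 2 starts. The 250 bases before each start are printed 5′ to 3′ on the strand of the gene, with capitals marking the letters TGAATG or TCAATG, the core of the CIC site, on either strand. Dusp6 lies at chr10:99262981-99263230 (plus strand), Spry2 at chr14:105896820-105897069 (minus strand), and the Etv5 window at chr16:22438369-22438618 (minus strand), inside the first intron by the GENCODE annotation.
Dusp6: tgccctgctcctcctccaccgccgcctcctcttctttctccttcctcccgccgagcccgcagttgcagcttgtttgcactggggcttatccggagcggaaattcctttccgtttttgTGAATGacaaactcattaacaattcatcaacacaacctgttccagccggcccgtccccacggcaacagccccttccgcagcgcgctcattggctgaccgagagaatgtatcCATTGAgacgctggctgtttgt
Spry2: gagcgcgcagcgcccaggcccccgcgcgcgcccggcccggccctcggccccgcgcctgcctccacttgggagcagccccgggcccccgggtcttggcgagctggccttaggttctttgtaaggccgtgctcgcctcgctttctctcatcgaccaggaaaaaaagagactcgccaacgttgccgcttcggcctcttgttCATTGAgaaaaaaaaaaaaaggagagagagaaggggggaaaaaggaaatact
Etv5: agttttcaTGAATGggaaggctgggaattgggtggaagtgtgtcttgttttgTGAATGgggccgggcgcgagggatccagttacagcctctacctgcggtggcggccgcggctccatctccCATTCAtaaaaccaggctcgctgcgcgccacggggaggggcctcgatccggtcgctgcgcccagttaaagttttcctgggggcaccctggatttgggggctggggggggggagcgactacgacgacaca
The core was present at 2 places in the Dusp6 window, 1 in that of Spry2 and 3 in the intronic window of Etv5. The other Etv5 window and those of Fgf3, Fgf4 and Fgf18 held 0. Over all 32817 windows of this length, 16.97% held at least 1 match, and a match is a description of these letters only. The ETS letters CCGGAA, which cannot overlap the core, were on neither strand of any of the 7 windows and in 12.02% of all windows. The shorter GGAA within them, which the printed windows do hold, was not counted.

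Other genes of the pathway were compared by list. Over all stages edgeR called 0 of the 9 tested of 17 other FGF ligands, 0 of 6 receptors and co-receptors, 0 of 18 genes of the RAS-ERK relay, 0 of 16 other feedback and target genes and 0 of 13 heparan sulphate genes, with 1, 0, 1, 2 and 1 of them at an unadjusted p under 0.05 and list medians of -0.02, -0.07, -0.01, 0.02 and -0.01 log2 beside -0.0023 over all genes.

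With somite number, in both genotypes together, other ligands also moved in opposite directions. Fgf9 rose (0.19 ± 0.04 log2 per somite; edgeR, adjusted p = 0.00031), and Fgf15 (-0.21 ± 0.03; edgeR, adjusted p = 2.7e-06) and Fgf14 (-0.25 ± 0.09; edgeR, adjusted p = 0.045), an intracellular FGF homologous factor, fell. Fgf15 also passed within wt and within matdel embryos. Fgf10, a ligand of limb and lung buds, was at 28.9 ± 7.45 CPM (SD, n = 37), and Fgf16 and Fgf21 had 0 counts in 37 of 37 embryos.

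Of the 6 receptors tested, Fgfr1, the main receptor of this tissue, was at 123 ± 9.55 CPM with a slope of -0.0044 ± 0.01 that did not pass. Fgfrl1, a receptor without a kinase domain, rose (0.09 ± 0.02; edgeR, adjusted p = 0.0010), and Fgfr3 (-0.15 ± 0.04; edgeR, adjusted p = 0.020) and Fgfr4 (-0.25 ± 0.08; edgeR, adjusted p = 0.017) fell. The list median was -0.08 log2 per somite beside -0.0024 over all genes.

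Of the 16 other feedback and target genes Il17rd (Sef), a membrane inhibitor of FGF receptors, rose by 0.09 ± 0.02 (edgeR, adjusted p = 0.0088), as did the immediate early gene Ier2 (0.08 ± 0.03; edgeR, adjusted p = 0.044). The phosphatase genes Dusp5 (-0.15 ± 0.02; edgeR, adjusted p = 5.5e-06) and Dusp9 (-0.21 ± 0.05; edgeR, adjusted p = 0.0027) and Etv1, an ETS gene of the Etv4 family (-0.13 ± 0.04; edgeR, adjusted p = 0.027), fell, so phosphatases of ERK moved in both directions. Of 13 heparan sulphate genes, beside 9.21% of all genes rising and 9.39% falling, 4 rose and 0 fell (Ndst1 with 0.10 ± 0.01, Hs2st1, Hs6st1 and Sulf2), with a list median of 0.0030.

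Markers of other cell types moved with somite number beside these genes. Of the 8 tailbud markers Cyp26a1, a retinoic acid degrading enzyme, rose (0.25 ± 0.03; edgeR, adjusted p = 1.0e-07) and Nkx1-2 fell (-0.12 ± 0.02; edgeR, adjusted p = 0.00035), and 6, T, Tbx6 and Msgn1 among them, did not pass. Beside the same 9.21% and 9.39% of all genes, of 7 endothelial markers 4 rose, of 7 erythroid markers 5 rose, of 8 endoderm markers 4 fell and of 6 surface ectoderm and allantois markers 3 fell. The summed endothelial markers had a median of 214 CPM at 6 and 277 CPM at 11 somites, and the endoderm markers 1262 and 170 CPM. Their part in the slopes of the FGF genes was not tested. Between the genotypes edgeR called 0 of the 8 tailbud markers, 0 of them at an unadjusted p under 0.05, with a list median of 0.08 log2 beside Fgf8 at 0.32. It also called 0 of the 5 node and notochord markers, of which 2 had an unadjusted p under 0.05 (median 0.27).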

How the data were processed

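RNA-seq reads of 37 single tailbuds (21 wt, 16 matdel) from poly(A) libraries were trimmed with Trim Galore, aligned with HISAT2 to GRCm38.p6 and counted per gene in SeqMonk by the authors, who deposited raw counts. Which libraries were made with a stranded kit is not given in the sources used here. A deposited table of log2 RPKM values for Hox genes and a table of the authors' own comparisons (fold changes and p-values) were not used. After 49 rows with a repeated identifier were dropped, 35542 genes remained, and 0 per-sample columns were left unused.

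Counts were TMM normalised and tested with edgeR 4.0.16 (quasi-likelihood, filterByExpr with a minimum count of 10, Benjamini-Hochberg threshold 0.05) in R 4.3.3, with sex as a covariate in all fits but those of single stages, which had none. Somite number was a factor for genotype and a number for slopes. Correlations used log2 CPM (prior count 2) less the genotype and stage mean, with 100000 permutations within groups, and ratio slopes 100000 permutations. RPKM was CPM per kilobase of merged exons. Groups came from the labels. The scripts were tested on simulated data. Members and lists were chosen with earlier results of these data known, and all 10 members are named. Some results of the RAS-ERK relay list are not reported here. Nothing in the labels says that replicates of a group came from separate litters, so p-values measure the spread between embryos. The deviations of same-numbered embryos correlated at r = -0.24 to 0.76, over 0.1 in 7 of 16 pairs, so numbers were not used as pairs. Alternatives were DESeq2 1.42.0, RLE size factors, no filter on low counts, no sex term, female embryos alone, the replicate block, each embryo left out, and leaving out the shallow or ribosomal RNA rich libraries.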

Additional observations from a re-analysis of the deposited data

Results flagged for a closer look

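Each of the 10 genes was tested in the same 4 groups of 4 embryos, and 1 of these 40 tests, which are not independent, found an embryo far from the others: Fgf3 in wt replicate 1 at 10 somites stood at 24.8 CPM, with the nearest embryo at 39.5 CPM and the highest at 41.3 CPM. The gap was 0.892 of the range of the group. Chance gives about 1 such embryo in 20 tests.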

How the results depend on the processing

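Etv4 fell with somite number in all leave-one-out fits within wt, within matdel and in both genotypes, but in matdel females alone its slope of -0.13 missed the threshold (edgeR adjusted p = 0.071), and 0 members were called between genotypes over all stages under 45 alternatives. Differences near 0 changed sign. Over all stages the genotype difference became -0.030 for Fgf3, -0.077 for Fgf17 and -0.014 for Spry4 in female embryos alone, -0.0016 for Spry4 without the shallow libraries, and -0.068 for Fgf18 and 0.020 for Etv5 without the ribosomal RNA rich pair. Wt slopes in females were 0.021 for Fgf3 and 0.011 for Spry4. Matdel slopes of Fgf3 were 0.0053 with no sex term and 0.0037 in females, where Fgf18 had -0.053. The pooled slope of Fgf3 was 0.00012 with no filter and 0.015 in females. With single embryos left out, genotype differences ranged from -0.017 to 0.043 for Fgf17, -0.087 to 0.12 for Fgf18, -0.017 to 0.046 for Spry4 and -0.047 to 0.011 for Etv5. Wt slopes ranged from -0.033 to 0.00046 for Fgf3, -0.011 to 0.050 for Fgf8 and -0.027 to 0.00020 for Etv5, matdel slopes from -0.032 to 0.015 for Fgf3 and -0.024 to 0.14 for Fgf18, and the pooled Fgf3 slope from -0.015 to 0.0074. Members called numbered 1 at 11 somites with no filter on low counts, 3 for the wt slope in females and 1 to 3 with an embryo left out, and 1 for the matdel slope in females (Fgf17) or without the ribosomal RNA rich pair (Etv4) and 1 to 3 with an embryo left out. Called pairs numbered 5 without the 2 farthest embryos and 5 to 32 with an embryo left out, 5 being without wt replicate 1 at 10 somites. With the longest transcript, 7 of 10 members kept their rank in level. The cause was not tested.

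With the replicate block, used although the numbers did not pair the embryos, members called were 0 for genotype, 1 for the wt slope, 3 for the matdel slope and 4 for both, and the genotype difference was -0.0011 for Fgf17 and -0.020 for Fgf18 and the pooled Fgf3 slope 0.00068. Over all genes the matdel slope was called for 475 genes, against 1127 by DESeq2, 175 in females and 301 without the ribosomal RNA rich pair. The wt slope was called for 1006 genes and 1802 in females, and the slope difference for 0 and for 39 with no filter on low counts. Depth limits Fgf18 most, at 4 to 263 counts.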
